A study of Mus musculus with 10 samples.

Results

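The genes described here are 10 genes of stratified epithelial differentiation, namely Calm4, Dsc3, Elovl4, Lgals7, Ly6d, Perp, Sprr1a, Trim29, S100a14 and Fabp5. They were taken by name, as the genes whose symbol was the only one given for a probe set, and they held 13 of the 3663 probe sets and 10 of the 2932 features (genes or unnamed probe sets) in the table. RNA was measured on Affymetrix mouse arrays in 5 populations sorted from mammary glands of virgin FVB females aged 6 to 8 weeks, with 2 arrays each. The populations were Thy-1+CD24medCD49fhigh, Thy-1-CD24medCD49fhigh and CD24medCD49fmed, taken as basal with 6 arrays, and CD24highCD49fmed and CD24medCD49f-/low, taken as luminal with 4 arrays. All were depleted of cells with CD45, CD31 and Ter119, and per the methods of the study of CD140α, were sorted in 2 passes, and carried no transgene or treatment in the labels. CD24 and CD49f (integrin α6) are the surface proteins that divide luminal from basal mammary cells, and Thy-1 was added to divide the CD24medCD49fhigh gate, which holds cells able to regenerate a gland on transplantation. The labels do not say whether the arrays of a population came from separate mice, and the p-values cover no more than the scatter of these arrays, which may be technical.

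Stratified epithelia, such as the epidermis, renew from a basal layer whose cells move outward, exchange their keratins, strengthen their desmosomes and end as a cross-linked envelope sealed by lipids. The mammary gland is a bilayer of luminal cells over contractile basal cells. Its basal cells share keratins and the transcription factor p63 with the basal layer of skin but do not normally cornify, while the nipple and the skin over the gland do. Several of the 10 genes are known as p63 targets or as markers of the suprabasal, differentiating layers of skin.

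The deposited values are log2 intensities centred on the mean of each probe set over the 10 arrays. Levels therefore cannot be compared between genes. Pairs of values are given in replicate order, which is 1 and 2, or 2 and 3 for CD24medCD49fmed. The authors also left out probe sets whose arrays all lay within 4-fold of each other, so every gene in the table varied. The sort was checked on 13 genes of the mammary basal list that were in the table. All 13 were above 0 on each of the 6 basal arrays and below 0 on each of the 4 luminal arrays. Of 15 mammary luminal genes, 11 to 15 were above 0 on the luminal arrays. None was above 0 on 3 of the basal arrays, but 9 were above 0 on Thy-1+CD24medCD49fhigh replicate 2, 5 on CD24medCD49fmed replicate 3 and 2 on Thy-1-CD24medCD49fhigh replicate 2. No endothelial marker was in the table, and of the leukocyte markers only Lcp1 was, which was lower in basal cells (-1.76). Of 9 fibroblast genes, 8 were above 0 on each Thy-1+CD24medCD49fhigh array, 7 on each CD24medCD49fmed array and 4 on each Thy-1-CD24medCD49fhigh array. Their medians were 1.53 and 1.10 in Thy-1+ cells, 0.797 and 0.802 in CD24medCD49fmed cells and -0.066 and -0.11 in Thy-1- cells. Thy-1+CD24medCD49fhigh replicate 1 was closer to CD24medCD49fmed replicate 2 than to its partner (r over all probe sets 0.836 against 0.449), which touches several results given later. The CD24medCD49f-/low arrays were likewise each closer to a CD24highCD49fmed array (r 0.761 for replicate 1 and 0.596 for replicate 2) than to each other (0.364). Thy-1-CD24medCD49fhigh replicate 1 (0.753 against 0.647 with its partner), Thy-1+CD24medCD49fhigh replicate 2 (0.637 against 0.449) and both CD24medCD49fmed arrays were also closest to another basal population. Only the CD24highCD49fmed arrays and Thy-1-CD24medCD49fhigh replicate 2 were closest to their partner.

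Promoter sequences were read for 1 gene of each of the 3 patterns met in the data. Calm4 was high on 2 basal arrays only, Lgals7 was high on every basal array, and Sprr1a followed neither. Each runs from 250 bases before to 50 after the transcript start that the table of promoters uses (RefSeq, GRCm38.p6), 5′ to 3′ along the gene, in lower case with matches to the searched motifs in capitals. The start was the first base of the annotated gene for Calm4 and Sprr1a, but lay 590 bases inside the annotated gene for Lgals7. The motifs were the AP-1 site TGANTCA and the TATA box TATAAA, both sought on both strands. AP-1 is the dimer of Fos and Jun proteins that many epidermal differentiation genes are known to use.
Calm4 (chr13:3837507-3837806, plus strand): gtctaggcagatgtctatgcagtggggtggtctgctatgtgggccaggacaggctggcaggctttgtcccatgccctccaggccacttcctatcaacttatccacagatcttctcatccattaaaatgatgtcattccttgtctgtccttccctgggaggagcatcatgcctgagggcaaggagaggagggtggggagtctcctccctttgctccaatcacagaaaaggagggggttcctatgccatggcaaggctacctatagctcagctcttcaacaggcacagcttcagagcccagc
Lgals7 (chr7:28864136-28864435, plus strand): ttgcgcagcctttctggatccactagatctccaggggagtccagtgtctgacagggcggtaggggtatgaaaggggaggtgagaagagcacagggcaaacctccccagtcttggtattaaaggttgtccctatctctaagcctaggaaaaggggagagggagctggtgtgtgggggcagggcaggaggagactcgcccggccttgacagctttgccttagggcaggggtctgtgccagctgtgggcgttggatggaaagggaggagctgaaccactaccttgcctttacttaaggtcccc
Sprr1a (chr3:92485832-92486131, minus strand): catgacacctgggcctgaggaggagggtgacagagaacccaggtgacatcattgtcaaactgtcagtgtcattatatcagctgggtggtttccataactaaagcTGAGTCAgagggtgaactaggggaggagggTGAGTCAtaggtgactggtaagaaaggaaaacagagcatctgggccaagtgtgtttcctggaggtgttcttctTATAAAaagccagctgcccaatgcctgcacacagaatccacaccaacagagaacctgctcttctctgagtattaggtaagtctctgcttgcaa
Sprr1a held 2 matches to the AP-1 motif, which began at positions -146 and -116 from that start, and 1 match to the TATA box at -43. Calm4 and Lgals7 held no match to either motif in these windows, and neither did the promoter of Elovl4, the only other of the 10 genes with a sequence in the table of promoters. Of all 32851 promoters of this length, 7.81% held the AP-1 motif and 13.6% the TATA box.

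In basal cells, 7 of the 10 genes were higher than in luminal cells and 1, Ly6d, was lower. This comparison asked which genes of the set separate the basal from the luminal compartment. It was a broad divide, since 76.0% of all 2932 features were called in it, 34.7% as higher in basal cells and 41.3% as lower. The 7 genes called higher were Trim29, Perp, Lgals7, Elovl4, Dsc3, Fabp5 and S100a14. The median difference of the 10 genes was 1.44 on the log2 scale, against -0.11 over all features. The 10 genes were chosen with earlier results of these data known, so this contrast is not independent of the data. For 6 of the genes all 6 basal arrays lay above all 4 luminal arrays, which held for 25.2% of all features. These arrays were of sorted bulk cells, in which fewer cells of a type and less RNA per cell cannot be told apart. By a moderated F test over the 5 populations, the same 7 genes were called, in a table where 58.4% of features were. Calm4 (adjusted p = 0.0718), Ly6d (adjusted p = 0.118) and Sprr1a (adjusted p = 0.440) were not called by it.

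**Figure D1:**
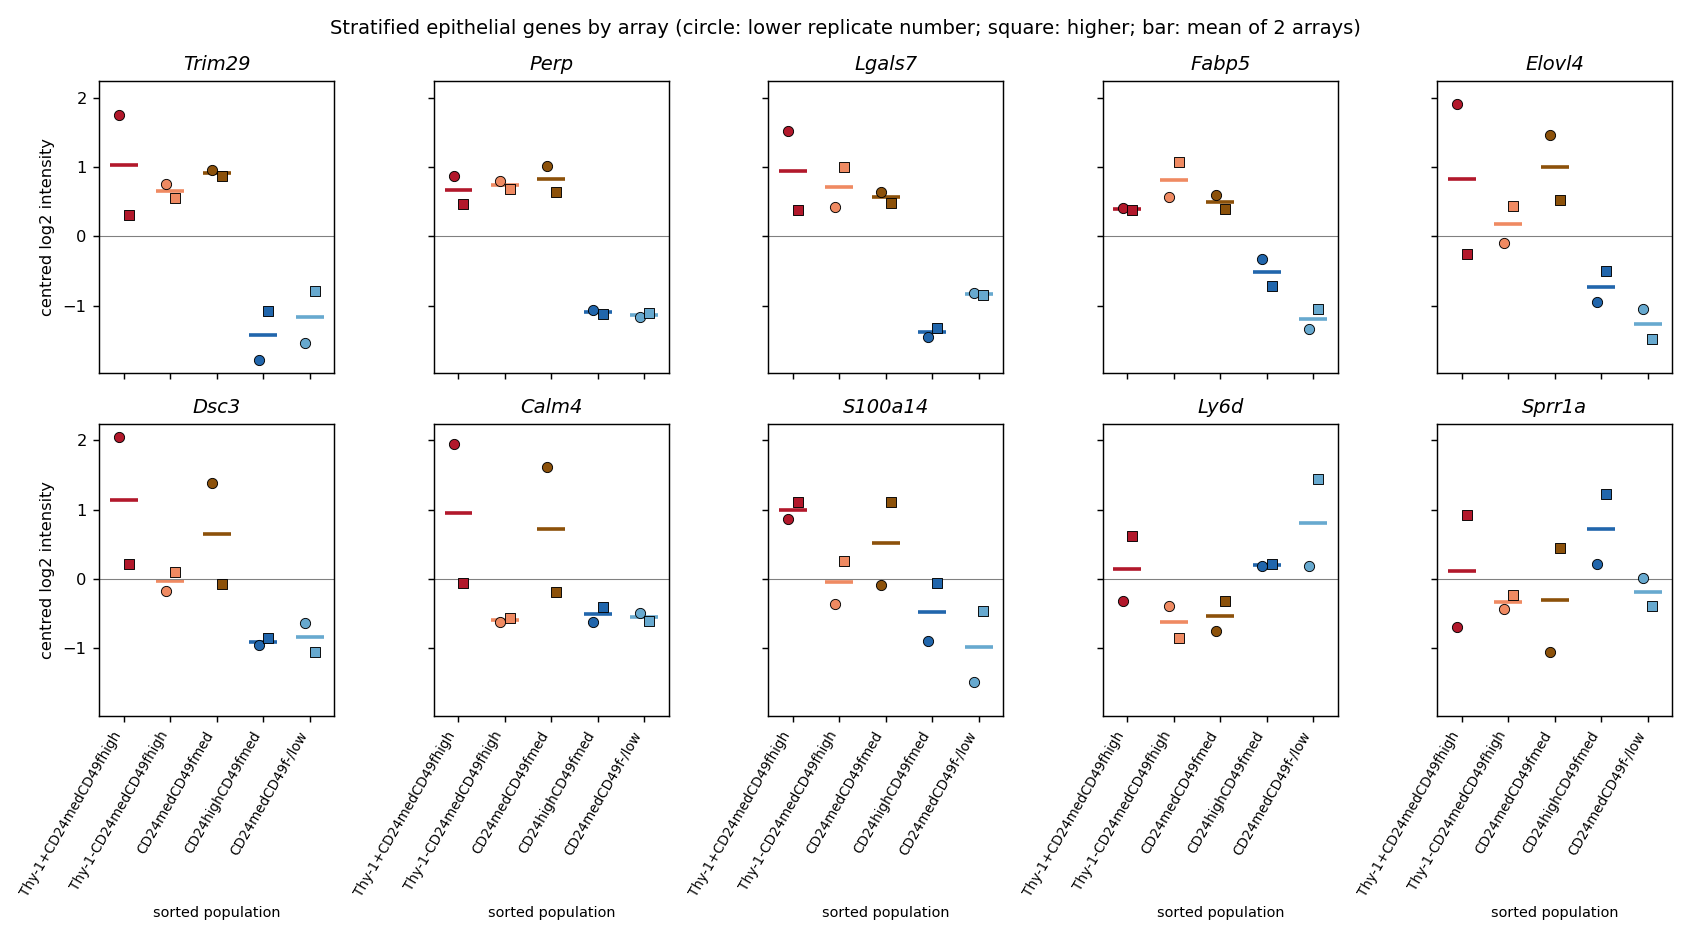
Centred log2 intensity (vertical axis) of each of the 10 genes on each of the 10 arrays, by sorted population (horizontal axis), with a bar at the mean of the 2 arrays of a population. Trim29, Perp, Lgals7, Fabp5, Elovl4 and Dsc3 have all 6 basal arrays above all 4 luminal arrays, while Calm4 is high on 2 basal arrays, at 1.95 and 1.61.

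Trim29, a tripartite motif protein of basal and squamous epithelia, had the largest difference of the 10 genes. It stood at 1.75 and 0.30 in Thy-1+CD24medCD49fhigh, 0.75 and 0.56 in Thy-1-CD24medCD49fhigh, 0.95 and 0.87 in CD24medCD49fmed, against -1.79 and -1.07 in CD24highCD49fmed and -1.54 and -0.78 in CD24medCD49f-/low. Every basal array was above every luminal one, and the widest gap within a basal population was in Thy-1+CD24medCD49fhigh. Basal cells exceeded luminal cells by 2.16 ± 0.36 (SE; limma, adjusted p = 3.73e-05), or 4.47-fold.

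Perp is a tetraspan membrane protein that p63 induces and that desmosomes of stratified epithelia need for their assembly. It measured 0.87 and 0.47 in Thy-1+CD24medCD49fhigh, 0.80 and 0.68 in Thy-1-CD24medCD49fhigh and 1.01 and 0.63 in CD24medCD49fmed, against -1.06 and -1.12 in CD24highCD49fmed and -1.16 and -1.10 in CD24medCD49f-/low. The 4 luminal arrays lay within a span of under 0.1, and no population stood out within either compartment. The spread was an SD of 0.190 over the 6 basal arrays and 0.0391 over the 4 luminal ones. The difference was 1.85 ± 0.32 (SE; limma, adjusted p = 5.03e-05), or 3.61-fold higher in basal cells.

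Dsc3 is a desmocollin, a cadherin of the desmosomes in the lower layers of stratified epithelia, and was read by 2 probe sets. It measured 2.05 and 0.22 in Thy-1+CD24medCD49fhigh, -0.17 and 0.11 in Thy-1-CD24medCD49fhigh and 1.38 and -0.08 in CD24medCD49fmed, against -0.96 and -0.85 in CD24highCD49fmed and -0.64 and -1.05 in CD24medCD49f-/low. All basal arrays were above all luminal ones, but 2 basal arrays were well above the other 4. The difference was 1.46 ± 0.39 (SE; limma, adjusted p = 0.00273), or 2.75-fold higher in basal cells. Tested alone, its probe sets differed by 1.21 ± 0.38 and 1.71 ± 0.41 (SE), both called.

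The remaining desmosomal genes did not all share that direction. Of 15 listed genes 4 were in the table. Dsp (desmoplakin, 0.95 ± 0.38, SE) was higher in basal cells and Pkp2 (plakophilin 2, -2.74 ± 0.39) and Dsc2 (desmocollin 2, -1.23 ± 0.36) were lower. Dsg1a, a desmoglein of the upper layers of skin, differed by 0.86 ± 0.41 and was not called (limma, adjusted p = 0.0625). The median of the 4 was -0.18, close to the -0.11 of all features. Dsc3 and Dsc2, 2 desmocollins, thus lay on opposite sides of the basal and luminal divide.

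Lgals7 encodes galectin 7, a β-galactoside-binding lectin typical of stratified epithelia. It stood at 1.51 and 0.38 in Thy-1+CD24medCD49fhigh, 0.43 and 1.00 in Thy-1-CD24medCD49fhigh and 0.64 and 0.48 in CD24medCD49fmed, against -1.45 and -1.32 in CD24highCD49fmed and -0.82 and -0.85 in CD24medCD49f-/low. The 2 arrays of each luminal population were close to each other, and CD24medCD49f-/low lay above CD24highCD49fmed on both arrays. Basal cells were 3.60-fold higher, by 1.85 ± 0.34 (SE; limma, adjusted p = 9.44e-05). Of 8 other galectins, 3 were in the table. Lgals1 (2.55 ± 0.34, SE) and Lgals9 (0.99 ± 0.38) were higher in basal cells and Lgals3 (-1.70 ± 0.33) was lower.

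Fabp5 and Elovl4 belong to lipid handling. Fabp5, the epidermal fatty acid-binding protein, measured 0.41 and 0.38 in Thy-1+CD24medCD49fhigh, 0.57 and 1.07 in Thy-1-CD24medCD49fhigh and 0.60 and 0.40 in CD24medCD49fmed, against -0.33 and -0.71 in CD24highCD49fmed and -1.33 and -1.05 in CD24medCD49f-/low. All basal arrays were above all luminal arrays, and it was the only one of the 6 genes without such overlap whose highest array was a Thy-1- array. The difference was 1.43 ± 0.32 (SE; limma, adjusted p = 6.68e-04), or 2.69-fold higher in basal cells. RefSeq lists a pseudogene copy, Fabp5l2, and how much of its RNA the probe sets would read was not tested.

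Elovl4 is an elongase that makes the very long fatty acids of skin ceramides. It stood at 1.90 and -0.25 in Thy-1+CD24medCD49fhigh, -0.09 and 0.44 in Thy-1-CD24medCD49fhigh and 1.46 and 0.53 in CD24medCD49fmed, against -0.94 and -0.51 in CD24highCD49fmed and -1.05 and -1.49 in CD24medCD49f-/low. Basal and luminal arrays did not overlap, though the lowest basal array (-0.25) and the highest luminal array (-0.51) were near each other. Basal cells were higher by 1.66 ± 0.40 (SE; limma, adjusted p = 0.00113), or 3.16-fold.

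Other genes of the epidermal lipid barrier were called in both directions. Of 27 listed genes, 10 were in the table, with 2 higher in basal cells, 5 lower and a median of -0.77, in a comparison that called 41.3% of all features lower. Fabp4, a fatty acid-binding protein best known from adipocytes, was higher (2.35 ± 0.39, SE), whereas the elongase Elovl7 (-1.56 ± 0.33), the palmitoyltransferase subunit Sptlc3 (-1.45 ± 0.35) and the desaturase Scd1 (-1.30 ± 0.36) were lower. Elovl4 and Elovl7 were therefore called in opposite directions.

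S100a14 and Calm4 are small calcium-binding proteins with EF hands. S100a14, an epithelial S100 protein, measured 0.87 and 1.12 in Thy-1+CD24medCD49fhigh, -0.36 and 0.26 in Thy-1-CD24medCD49fhigh and -0.08 and 1.11 in CD24medCD49fmed, against -0.90 and -0.06 in CD24highCD49fmed and -1.49 and -0.46 in CD24medCD49f-/low. The groups overlapped, and replicate 2 was the higher array in each of the 4 populations that had replicates 1 and 2. The difference was 1.21 ± 0.36 (SE; limma, adjusted p = 0.00584), or 2.32-fold higher in basal cells, and without CD24highCD49fmed replicate 1 it was 1.00 and no longer called (adjusted p = 0.0520). Of 14 other S100 genes, 2 were in the table, S100a10 (1.60 ± 0.36, SE) and S100a4 (1.57 ± 0.32), both higher in basal cells.

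Calm4, a calmodulin-like protein of differentiating mouse keratinocytes, measured 1.95 and -0.06 in Thy-1+CD24medCD49fhigh, -0.62 and -0.57 in Thy-1-CD24medCD49fhigh and 1.61 and -0.18 in CD24medCD49fmed, against -0.61 and -0.41 in CD24highCD49fmed and -0.50 and -0.61 in CD24medCD49f-/low. It was high on Thy-1+CD24medCD49fhigh replicate 1 and CD24medCD49fmed replicate 2, intermediate on their partners, and as low on both Thy-1- arrays as on the luminal arrays. The difference of 0.89 ± 0.41 (SE) was not called (limma, adjusted p = 0.0543, 95% interval 0.036 to 1.74 before adjustment). It was called without CD24medCD49fmed replicate 3 (1.19, adjusted p = 0.0129) or without Thy-1+CD24medCD49fhigh replicate 2 (1.22, adjusted p = 0.0143), and was 0.59 without CD24medCD49fmed replicate 2 and 0.55 without Thy-1+CD24medCD49fhigh replicate 1.

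Ly6d and Sprr1a did not share the basal direction. Ly6d, a lipid-anchored surface protein of the Ly6 family found on keratinocytes and early B cells, measured -0.32 and 0.62 in Thy-1+CD24medCD49fhigh, -0.39 and -0.85 in Thy-1-CD24medCD49fhigh and -0.75 and -0.32 in CD24medCD49fmed, against 0.18 and 0.21 in CD24highCD49fmed and 0.19 and 1.43 in CD24medCD49f-/low. Of the basal arrays 5 lay below all luminal arrays, and Thy-1+CD24medCD49fhigh replicate 2 lay above 3 of them. Ly6d was 1.79-fold lower in basal cells, by -0.84 ± 0.35 (SE; limma, adjusted p = 0.0361). The call did not hold without CD24medCD49f-/low replicate 2 (-0.53, adjusted p = 0.136). It was also lost without either CD24highCD49fmed array, CD24medCD49fmed replicate 2, Thy-1+CD24medCD49fhigh replicate 1 or Thy-1-CD24medCD49fhigh replicate 2, at differences from -0.85 to -0.68. Of 21 other Ly6 family genes, 3 were in the table, with Ly6g6c (0.99 ± 0.35, SE) and Lynx1 (0.80 ± 0.34) higher in basal cells and Ly6k (-1.63 ± 0.34) lower.

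Sprr1a encodes a small proline-rich precursor of the cornified envelope, which transglutaminases cross-link. It stood at -0.69 and 0.92 in Thy-1+CD24medCD49fhigh, -0.44 and -0.24 in Thy-1-CD24medCD49fhigh and -1.06 and 0.44 in CD24medCD49fmed, against 0.22 and 1.23 in CD24highCD49fmed and 0.01 and -0.39 in CD24medCD49f-/low. The groups overlapped, and partner arrays differed by as much as the populations did. The difference was -0.45 ± 0.39 (SE) and was not called (limma, adjusted p = 0.298, 95% interval -1.26 to 0.37). On the basal arrays, the 2 above 0 for Sprr1a were Thy-1+CD24medCD49fhigh replicate 2 and CD24medCD49fmed replicate 3. These also held the most mammary luminal genes above 0 among the basal arrays, 9 and 5 of 15, with list medians of 0.12 and -0.39. Thy-1-CD24medCD49fhigh replicate 2, where Sprr1a was at -0.24, had a list median of -0.30, above that of CD24medCD49fmed replicate 3. The remaining basal arrays had list medians from -1.89 to -1.02. The part of luminal RNA in the values of Sprr1a, Ly6d and the remaining genes was not tested.

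**Figure D2:**
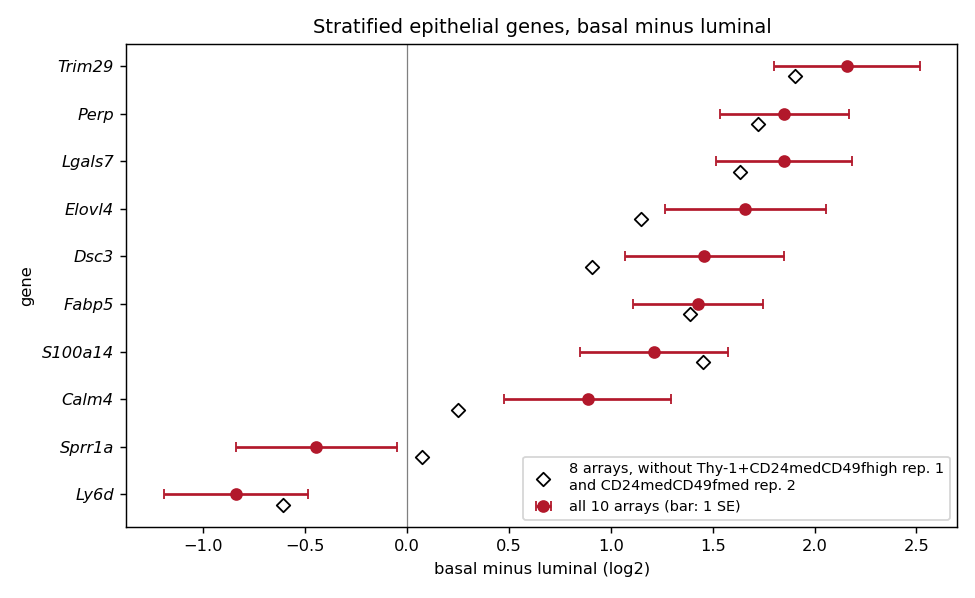
Difference of basal minus luminal population means (log2, horizontal axis) for each of the 10 genes (vertical axis), as filled circles with bars of 1 SE from all 10 arrays, and as open diamonds from 8 arrays. Without Thy-1+CD24medCD49fhigh replicate 1 and CD24medCD49fmed replicate 2, Trim29 is at 1.91 and Perp at 1.72, while Calm4 is at 0.25 and Dsc3 at 0.91.

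The transcription factors and signals of stratified epithelia were in the table for 9 of 27 listed genes, with 5 higher in basal cells and 2 lower. Trp63, which encodes p63, was higher by 3.20 ± 0.32 (SE), followed by Ets1 (2.78 ± 0.36) and the Notch ligand Jag2 (2.65 ± 0.33). Ehf, a factor that acts in the differentiating layers of skin, was lower in basal cells (-2.66 ± 0.39). Trp63 was also among the mammary basal genes, and Ehf among the mammary luminal genes, on which the sort was checked. Of 35 listed cornified envelope and late epidermal genes, only Capns2 was in the table, higher in basal cells by 0.98 ± 0.40 (SE; limma, adjusted p = 0.0336). Capns2 was at 1.94 on Thy-1+CD24medCD49fhigh replicate 1 and 1.54 on CD24medCD49fmed replicate 2. It lay between -0.69 and 0.23 on the other basal arrays and between -0.84 and -0.37 on the luminal ones. The F test did not call it (adjusted p = 0.0535). Of 20 hair follicle and sebaceous genes, 7 were in the table, with 5 higher in basal cells and 1 lower. Krt17 (4.28 ± 0.35, SE), Krt15 (3.92 ± 0.36), Sostdc1 (3.02 ± 0.32) and Lgr6 (1.60 ± 0.33) led that list, and Krt17 is also a mammary basal gene.

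Within the basal compartment Calm4, Dsc3 and Elovl4 were higher on 2 arrays than on the other 4. Thy-1+CD24medCD49fhigh replicate 1 and CD24medCD49fmed replicate 2 were the 2 highest basal arrays for 5 of the 10 genes, Calm4, Dsc3, Elovl4, Perp and Trim29, as they were for 17.4% of all features. For Calm4 the lower of the 2 was above the next basal array by 1.67, for Dsc3 by 1.16 and for Elovl4 by 0.93. For Trim29 and Perp that gap was 0.076 and 0.071. Only 13 of 2932 features (0.443%) had a gap of 1 or more, and 57 (1.94%) one of 0.5 or more. Without these 2 arrays Calm4 (-0.62 to -0.06) and Dsc3 (-1.05 to 0.22) lay within 4-fold by the averaged values. The 4-fold filter thus kept both genes through these arrays, so the shares do not measure how rare the pattern was.

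The 12 named genes of those 13 features, picked after their values were seen, were Krt77, Krt1, Krtdap, Krt10, Dmkn, Calm4, Dsg1a, Acer1, Anxa8, Cacnb4, Capns2 and Dsc3, in falling order of the gap. Krt1, Krt10 and Krt77 are keratins of the suprabasal layers of skin, Krtdap and Dmkn are proteins that differentiating keratinocytes make, and Acer1 is the epidermal alkaline ceramidase. Krt77 stood at 3.60 on Thy-1+CD24medCD49fhigh replicate 1 and 3.17 on CD24medCD49fmed replicate 2, with the next basal array at 0.36. Krt1 stood at 3.32 and 2.86 on the same arrays, with the next at 0.24.

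The suprabasal keratinocyte list moved with Calm4, Dsc3 and Elovl4. Of its 10 genes 6 were in the table (Krt1, Krt10, Krt77, Krtdap, Sbsn and Dmkn), and Krt2, Lor, Ivl and Flg were not. Krt1, Krt10, Krt77, Krtdap and Dmkn were also among the genes picked above for their gap, so the list is no separate support. By the averaged values, all but Krt77 lay within 4-fold without Thy-1+CD24medCD49fhigh replicate 1 and CD24medCD49fmed replicate 2. Those 2 arrays thus kept them in the table, and absent genes could not count against the pattern. All 6 were above 0 on both of those arrays, with medians of 2.67 (range 1.71 to 3.60) on Thy-1+CD24medCD49fhigh replicate 1 and 2.33 (0.71 to 3.17) on CD24medCD49fmed replicate 2. On the other basal arrays the median was -0.11 for Thy-1+CD24medCD49fhigh replicate 2, -0.13 for CD24medCD49fmed replicate 3 and -0.95 and -0.58 for the Thy-1- arrays. On the luminal arrays it lay between -1.21 and -0.55. Between basal and luminal cells 4 of the 6 were called higher and none lower, led by Krt77 (2.17 ± 0.56, SE) and Krt1 (1.68 ± 0.54). The part of suprabasal keratinocytes in the values of the 10 genes was not tested.

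**Figure D3:**
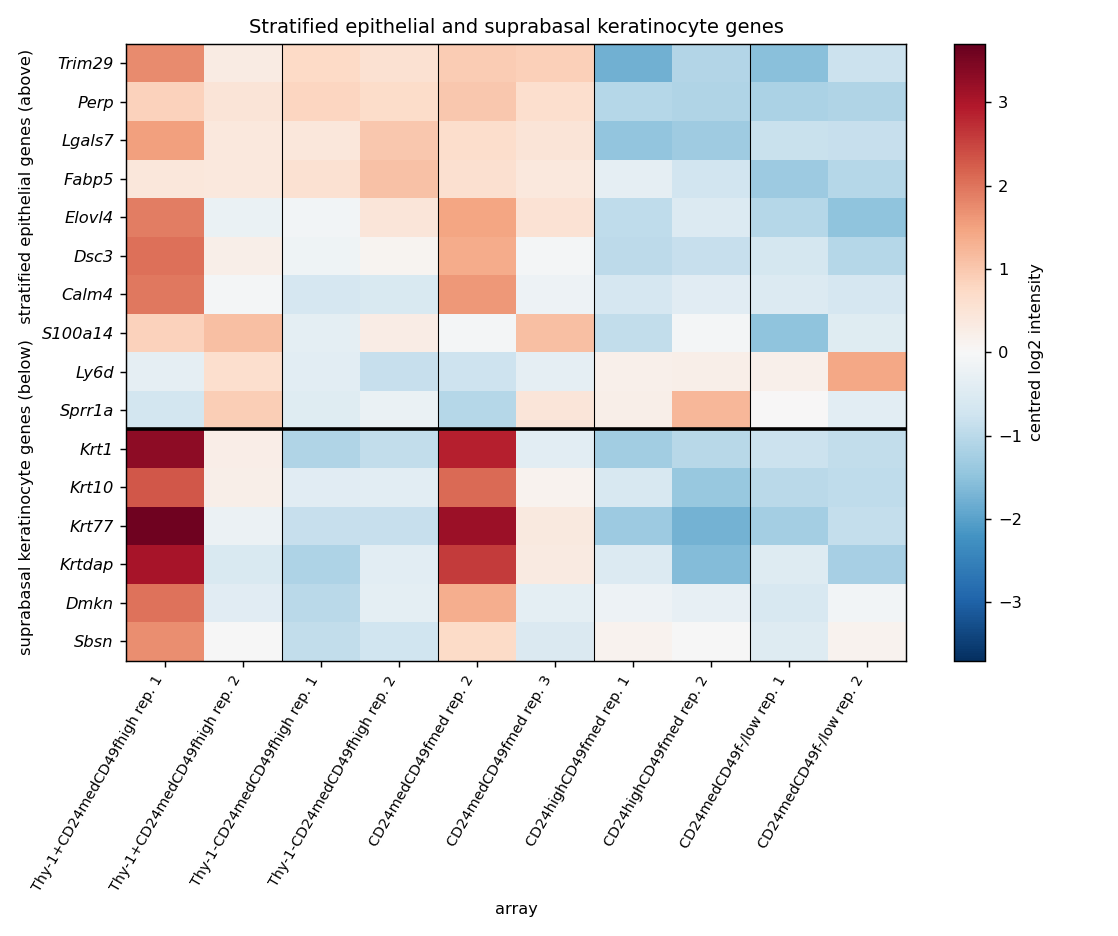
Centred log2 intensity as colour (blue below 0, red above) for the 10 stratified epithelial genes above the line and 6 suprabasal keratinocyte genes below it (rows), on each of the 10 arrays (columns, basal populations to the left). Calm4, Dsc3 and Elovl4 share the red of Krt1, Krt10, Krt77 and Krtdap on Thy-1+CD24medCD49fhigh replicate 1 and CD24medCD49fmed replicate 2, while Perp and Trim29 are red on all 6 basal arrays.

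With both arrays left out, a setting chosen after the data were seen, 7 of the 10 genes were still called higher in basal cells, and these were the 7 called on all 10 arrays. On all 10 arrays 34.7% of all features were called higher in basal cells and 58.4% by the F test. The share of all features called by either test without both arrays was not counted. The counts in this setting therefore cannot be read as a trait of the 10 genes. Without both arrays Trim29 was at 1.91, Perp at 1.72, Lgals7 at 1.64, S100a14 at 1.45 and Fabp5 at 1.39. Elovl4 was at 1.15 and Dsc3 at 0.91 (limma, adjusted p = 0.0202 for Elovl4 and 0.0372 for Dsc3), and Dsc3 was at 1.46 on all arrays. Calm4 was at 0.25 (adjusted p = 0.486) and Ly6d at -0.61 (adjusted p = 0.184), neither called. The number called by the F test was 3 in place of 7.

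Thy-1+ and Thy-1- cells of the CD24medCD49fhigh gate were compared because Thy-1 was added to split that gate. No gene of the 10 was called, in a comparison where 2 of 2932 features (0.0682%) were, and 1 of the 10, Calm4, had an unadjusted p under 0.05, as did 74 of all features. Calm4 differed by 1.54 ± 0.63 (SE; limma, adjusted p = 0.999), Dsc3 by 1.16 ± 0.60, S100a14 by 1.04 ± 0.56, Ly6d by 0.77 ± 0.55 and Elovl4 by 0.65 ± 0.61. Without Thy-1+CD24medCD49fhigh replicate 1 these were 0.53 for Calm4, 0.25 for Dsc3 and -0.43 for Elovl4, but 1.17 for S100a14 and 1.24 for Ly6d. Without Thy-1+CD24medCD49fhigh replicate 2 they were 2.54 for Calm4, 2.08 for Dsc3, 1.73 for Elovl4, 0.92 for S100a14 and 0.30 for Ly6d. Both Thy-1+ arrays were above both Thy-1- arrays for 4 of the 10 genes, Calm4, Dsc3, S100a14 and Ly6d, as they were for 17.3% of all features. One of the 2 features called was Col3a1, a fibrillar collagen among the fibroblast markers, at 2.21 and 2.48 in Thy-1+ cells and -0.84 and -1.05 in Thy-1- cells (3.29 ± 0.50, SE; limma, adjusted p = 0.00389). The part of fibroblast RNA in the Thy-1 differences of the 10 genes was not tested. The rank products test used by the study, at its unadjusted p under 0.01, picked Calm4 alone of the 10 genes, with 2.15% of features picked, and between basal and luminal cells it picked none of them, with 15.0% of features picked.

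The remaining comparisons held no call among the 10 genes. Thy-1+CD24medCD49fhigh was set against the mean of both other basal populations, where limma called 0 of 2932 features (0%), 64 had an unadjusted p under 0.05 and none of the 10 genes did. Calm4 differed there by 0.88 ± 0.55 (SE) and Dsc3 by 0.82 ± 0.52, and without Thy-1+CD24medCD49fhigh replicate 1 by -0.12 and -0.091. CD24medCD49fmed was set against the mean of the CD24medCD49fhigh populations, where 1 feature (0.0341%) was called. Calm4 differed by 0.54 ± 0.55 (SE) and was at -0.36 without CD24medCD49fmed replicate 2. Elovl4 differed by 0.49 ± 0.53 and was at -0.046 without Thy-1+CD24medCD49fhigh replicate 2.

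The luminal populations were compared as CD24highCD49fmed minus CD24medCD49f-/low, where 6 features (0.205%) were called and none of the 10 genes. Sprr1a differed by 0.91 ± 0.61 (SE; limma, adjusted p = 0.446, 95% interval -0.36 to 2.18) and Fabp5 by 0.67 ± 0.49 (adjusted p = 0.476, 95% interval -0.35 to 1.70). Sprr1a was at 0.41 without CD24highCD49fmed replicate 2 and 1.42 without replicate 1. With the median of every array set to 0, each difference in this comparison dropped by 0.38, which left Sprr1a at 0.54 and Fabp5 at 0.30. Perp differed by 0.041 ± 0.49 and Calm4 by 0.044 ± 0.63, and with the array medians set to 0 they were at -0.34 and -0.33. The median over the 10 genes was 0.042, against 0.35 over all features. Of the listed genes, Col3a1 was the only one called in the 4 comparisons within a compartment.

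The order of the population means differed between genes. Thy-1+CD24medCD49fhigh was highest for Calm4, Dsc3, Lgals7, Trim29 and S100a14, CD24medCD49fmed for Elovl4 and Perp, Thy-1-CD24medCD49fhigh for Fabp5, CD24highCD49fmed for Sprr1a and CD24medCD49f-/low for Ly6d. For Trim29, Perp, Lgals7, Fabp5, Elovl4 and Dsc3 the step between the lowest basal and the highest luminal population was free of overlap between arrays. Means of neighbouring populations within a compartment had overlapping arrays for some genes and not for others, and none of the 10 genes was called in the comparisons made there.

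In 2 of the 5 populations the arrays of a pair differed more over these genes, by the median, than over all features. In Thy-1+CD24medCD49fhigh the absolute difference between partner arrays had a median of 1.29 over the 10 genes, against 0.54 over all features, and 7 of the 10 were above that median. Elovl4 differed by 2.16, Calm4 by 2.01, Dsc3 by 1.83, Sprr1a by 1.61 and Trim29 by 1.44, with Sprr1a higher on replicate 2 and the other 4 on replicate 1. In CD24medCD49fmed the medians were 0.68 for the 10 genes and 0.42 for all features. In Thy-1-CD24medCD49fhigh they were 0.37 and 0.49, in CD24highCD49fmed 0.30 and 0.31, and in CD24medCD49f-/low 0.40 and 0.74. Fabp5 was the steadiest in Thy-1+CD24medCD49fhigh, with a difference of 0.022.

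**Figure D4:**
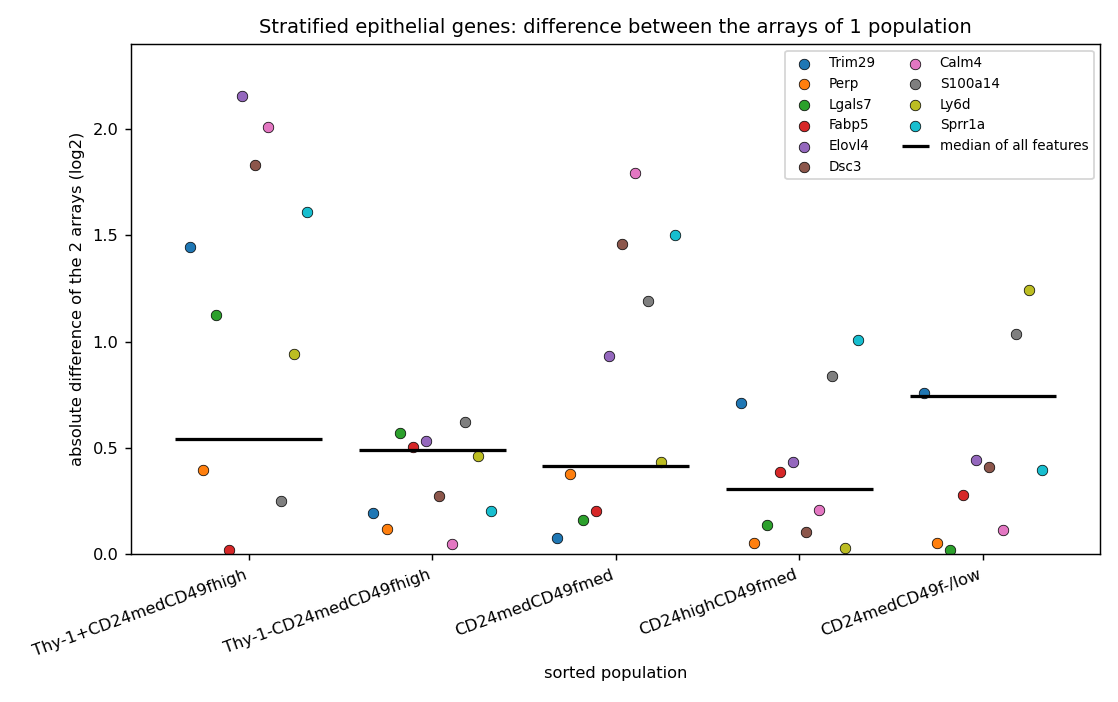
Absolute difference of partner arrays (log2, vertical axis) for each of the 10 genes (points) in each population (horizontal axis), with a black line at the median of all 2932 features. In Thy-1+CD24medCD49fhigh 7 of 10 genes lie above the line of 0.54, led by Elovl4 at 2.16, and in Thy-1-CD24medCD49fhigh the highest of the 10 is S100a14 at 0.62.

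Likeness was measured as the root mean square difference of centred values over the 10 arrays. Among the 10 genes the closest pairs were Lgals7 with Perp (0.35), Dsc3 with Elovl4 (0.35), Lgals7 with Trim29 (0.36) and Calm4 with Dsc3 (0.37). The most distant was Ly6d with Trim29 (1.59). Over all named genes outside the 10, the nearest to Calm4 was Dsg1a (0.17), to Dsc3 Fhl1 (0.25), to Elovl4 Arhgdib (0.38), to Lgals7 Abat (0.18) and to Perp Egr2 (0.11). The nearest to Trim29 was Map3k20 (0.18), to S100a14 Acot7 (0.32), to Fabp5 Rdh10 (0.19), to Ly6d Smagp (0.23) and to Sprr1a Oas1a (0.30). The mean profile of the 10 genes was nearest to Pfkp (0.18), Pdlim4 (0.21), Slc12a4 (0.21), Smad1 (0.22) and Rsu1 (0.23).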

How the data were processed

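RNA was labelled from the 3' end in 2 cycles and hybridised to Affymetrix mouse arrays. The authors normalised them by RMA, as their methods state, kept probe sets above a minimum level and 4-fold different between some arrays, and mean-centred each one. The processing notes name RMA and GCRMA, without versions. The deposited unit is thus log2 intensity relative to the mean of a probe set, from which neither level nor signal over background can be read. The number of arrays limits the precision.

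Probe sets with 1 symbol were averaged per gene (3291 of 3663; 75 had several symbols and 297 none), giving 2932 features. All 10 arrays entered 1 fit with a mean per population (limma 3.58.1, R 4.3.3, lmFit and eBayes, two-sided), tested on simulated data. A call needed an adjusted p (Benjamini-Hochberg, over all features) under 0.05. Fold changes are 2 to the power of the log2 difference.

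The 10 genes and the lists were chosen with earlier results of these data known. Named genes were the 10 genes, up to 4 genes per list with the smallest F-test p among those called by it, and the nearest gene by root mean square difference. Further genes were named from lists of few measured genes or after their values were seen, as stated. The labels do not say whether the replicate numbers pair the arrays. The correlations of replicate differences between populations ran from -0.20 to 0.52. They were 0.52 between the 2 luminal populations and 0.30 between Thy-1+ and Thy-1- cells. Alternatives covered normalisation, variance moderation, a replicate block, a minimum difference of 1, the arrays in the fit, single probe sets, rank products (100 permutations, p under 0.01) and each array left out. The study's text names a CD24lowCD49fmed gate where the labels have CD24medCD49fmed, and whether they are the same is not given in the sources used here.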

Additional observations from a re-analysis of the deposited data

Results flagged for a closer look

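In 3 of 20 sets of arrays (each of the 10 genes over the 6 basal and over the 4 luminal arrays), 1 array stood far from the others by Dixon's gap ratio. Chance does so in about 1 of 20 sets drawn from a single normal population. That rate does not apply here, since each set mixed several populations and the 4-fold filter favoured genes with an extreme array. Ly6d was at 0.62 on Thy-1+CD24medCD49fhigh replicate 2, with the other 5 basal arrays at -0.32 or lower. Ly6d was also at 1.43 on CD24medCD49f-/low replicate 2, with the other 3 luminal arrays between 0.18 and 0.21. Without that array Ly6d ran from -0.85 to 0.62, within 4-fold, so it passed the filter through that array. Fabp5 was at 1.07 on Thy-1-CD24medCD49fhigh replicate 2, with the other 5 basal arrays between 0.38 and 0.60.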

How the results depend on the processing

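Of the 10 genes, 8 were called between basal and luminal cells on all arrays, 9 with a replicate block (Calm4 added), 0 by rank products and 6 to 9 with 1 array left out. The F test called 7, 8 with the replicate block, 4 after quantile normalisation, 3 without both arrays high in suprabasal keratinocyte genes, and 4 to 9 with 1 array left out (4 without Thy-1-CD24medCD49fhigh replicate 1). Between Thy-1+ and Thy-1- cells the count was 0, and 1 by rank products. In the remaining comparisons it was 0 under each alternative run. Of all features, 76.0% were called between basal and luminal cells on all arrays and 58.4% by the F test. Rank products picked 15.0% of features between basal and luminal cells. The shares of all features under the other alternatives were not counted. Whether the counts of the 10 genes moved with the whole table was thus not tested. With the block CD24medCD49fmed rested on replicate 2 alone, and the labels do not say whether the replicate numbers pair the arrays. Ly6d was also not called after quantile normalisation (adjusted p = 0.0560) or at a minimum difference of 1. Some alternatives change only the test, or leave out an array outside the comparison, and so cannot move a difference. The share of changed signs is therefore no measure of stability. The difference of a gene changed sign in 54 of 940 recomputed values, 0 of them of a called difference. Among those printed above, these were Sprr1a between basal and luminal cells (0.073 without both arrays), Elovl4 between Thy-1+ and Thy-1- cells (-0.43 to 1.73 with 1 array left out, and -0.43 without both), Calm4 and Dsc3 in Thy-1+ against other basal cells (-0.12 to 1.89 and -0.091 to 1.74 with 1 array left out), Calm4 and Elovl4 in CD24medCD49fmed against CD24medCD49fhigh cells (-0.36 to 1.44 and -0.046 to 1.03 with 1 array left out), and Calm4 and Perp in CD24highCD49fmed against CD24medCD49f-/low cells. These were at -0.33 and -0.34 with array medians set to 0 and at -0.065 and -0.047 after quantile normalisation, and Calm4 lay between -0.061 and 0.15 with 1 array left out. Setting array medians to 0 also dropped by 0.17 each difference between Thy-1+ and Thy-1- cells. The causes were not tested. With 2 arrays a population, centred values and a table restricted to varying probe sets, the standard errors of the differences within a compartment ran from 0.42 to 0.63 (log2), which sets what could be detected.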
